A study of Mus musculus with 12 samples.

Results

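Homocysteine stands at the branch point of hepatic sulfur metabolism. Methionine adenosyltransferases turn methionine into S-adenosylmethionine (SAM), the methyl donor of the cell; methyltransferases use SAM and leave S-adenosylhomocysteine, which is hydrolysed to homocysteine. Homocysteine is then either methylated back to methionine or passed down the transsulfuration pathway to cystathionine and cysteine, from which glutathione, taurine and sulfate are made. The liver carries out most of the methionine breakdown of the body and is the main site of a SAM synthetase of its own, encoded by Mat1a.

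The genes described here encode 10 enzymes of this route: Mat1a and Mat2a (SAM synthesis), Gnmt and Pemt (SAM use), Ahcy (hydrolysis of S-adenosylhomocysteine), Bhmt (return of homocysteine to methionine), Cbs and Cth (transsulfuration), and Cdo1 and Csad (cysteine to taurine). They were found in the count table by the Ensembl identifier that GENCODE vM39 gives for each symbol, which matched 10 of the 55414 genes in the table, and all 10 passed the filter on low counts.

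RNAseq was performed on whole livers of 12 female C57Bl/6J mice, aged 8 to 12 weeks according to the methods, in 4 groups of 3 mice. Mice received 300 mg/kg FeSO4 or 0.9% NaCl i.p., followed after 6 h by 10 mg/kg of the synthetic glucocorticoid dexamethasone (DEX) or PBS, and livers were collected 2 h later, 8 h after the first injection. The groups are NaCl/PBS, NaCl/DEX, FeSO4/PBS and FeSO4/DEX. The comparisons ask how acute iron overload changes these genes, how DEX changes them in mice without and with iron overload, and whether the 2 DEX responses differ. Whole liver is a mixture of cells, so fewer cells of a type and less RNA per cell cannot be told apart.

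Between 16335651 and 23827340 reads per mouse were counted on genes, and the 10 genes took 0.87% to 1.16% of them in 11 mice and 1.42% in NaCl/DEX mouse 1. That mouse had the highest Mat1a and Bhmt values of all 12 mice, and its weight in the DEX comparisons is given beside their results. All 9 hepatocyte markers examined, Alb and Ttr among them, were detected in every group. Values are given as normalized counts (reads scaled with TMM factors to a common library size) for changes of 1 gene, and as RPKM (reads scaled to library depth and to the length of the canonical transcript) where genes are compared with each other. LFC is the log2 fold change, and a gene was called at an FDR of 0.05 or less in edgeR's quasi-likelihood test across 13857 genes.

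Mat2a carries a sequence feature that the other 9 genes lack, and it is shown because Mat2a had the largest change of the 10. The Mat2a transcript is known to be regulated by METTL16, an RNA methyltransferase that recognises the letters TACAGANAA (written as DNA, N being any base) in hairpins of its 3′ UTR. The 3′ UTR of the canonical Mat2a transcript, 1494 bases on the minus strand of chromosome 6 in GRCm39, held 6 matches on the transcript strand. The matches, numbered from the stop codon, are printed 5′ to 3′ with the matching letters in capitals and 10 bases on either side; the search was added after the values had been seen.
Mat2a site 1, chr6:72411218-72411246: tggcgtaggtTACAGAGAAgccttcaagc
Mat2a site 2, chr6:72410434-72410462: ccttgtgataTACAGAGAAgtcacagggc
Mat2a site 3, chr6:72410255-72410283: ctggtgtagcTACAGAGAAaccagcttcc
Mat2a site 4, chr6:72410140-72410168: atggcgtaagTACAGAGAAgccatcacct
Mat2a site 5, chr6:72410029-72410057: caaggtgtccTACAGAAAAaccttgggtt
Mat2a site 6, chr6:72409921-72409949: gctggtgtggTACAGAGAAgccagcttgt

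The bases before and after each match are complementary over a stretch of 3 to 6 bases, the shortest at site 1 and the longest at site 5. No match was found in the 3′ UTRs of the other 9 genes, including those of Cbs and Cdo1, which at 4296 and 4347 bases are longer than that of Mat2a. Among 20845 canonical transcripts with a 3′ UTR, 1404 (6.74%) held at least 1 match, 15 held at least 3, and Mat2a was the 1 transcript with 6. Mettl16 itself stood at an LFC of -0.41 after FeSO4 and was not called (FDR 0.12). Whether these sites or Mettl16 had a part in the change of Mat2a was not tested.

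The bases upstream of the annotated start are shown for the same gene. RefSeq promoters (GRCm38.p6, from 250 bases before to 50 after the start) were given for 7 of the 10 genes, 9 promoters in all; those of Mat1a, Cth and Cdo1 were not among them. The 250 upstream bases of Mat2a lie at chr6:72416540-72416789 in GRCm39 on the minus strand, and the TATA box letters TATAAA, found 32 bases before the start, are in capitals.
Mat2a upstream: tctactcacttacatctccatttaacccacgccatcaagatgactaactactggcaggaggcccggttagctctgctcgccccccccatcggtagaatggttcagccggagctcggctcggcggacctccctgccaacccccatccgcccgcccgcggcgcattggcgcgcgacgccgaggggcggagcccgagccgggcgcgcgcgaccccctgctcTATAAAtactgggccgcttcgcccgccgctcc

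Mat2a was the 1 gene of the 7 with the letters TATAAA on either strand, which 13.6% of 32851 promoters held. The glucocorticoid receptor site letters AGAACA were found in 1 of the 9 promoters, a Pemt promoter, against 19.0% of all promoters. The antioxidant response element TGACNNNGC (12.4% of all promoters) and the ATF4 composite element TGATGNAAN (4.0%) were found in 0 of the 9, on both strands. An absent match says only that these letters are not in this window of 300 bases.

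In control livers the levels per length spanned a wide range, with the liver-specific enzymes of SAM synthesis and SAM disposal at the top. Gnmt, the methyltransferase that disposes of excess SAM, had the highest mean in NaCl/PBS mice at 1202 RPKM (1055 to 1423), followed by Mat1a at 1039 (978 to 1100), and these 2 genes overlapped. Bhmt came next at 531 RPKM (473 to 628) and Cdo1 at 242 (232 to 249), each apart from its neighbours in that order. Pemt, Cth and Ahcy, at 206, 176 and 164 RPKM, overlapped each other in turn, as did Cbs and Csad at 64.1 and 63.8. Mat2a encodes the SAM synthetase subunit of fetal liver and of tissues other than liver. It was the lowest of the 10 at 20.8 RPKM (20 to 22.2), below every other gene in every NaCl/PBS mouse. Part of this order depends on the length used. Scaled to the length of all exons of a gene instead, Mat1a had the highest mean in NaCl/PBS mice (981 RPKM, Gnmt 717). In that scaling, Cdo1 (239) stood above Bhmt (219) and Pemt (54.3) below Ahcy (143) and Cth (66.1). Mat2a was again the lowest, at 12.8 RPKM.

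**Figure D1:**
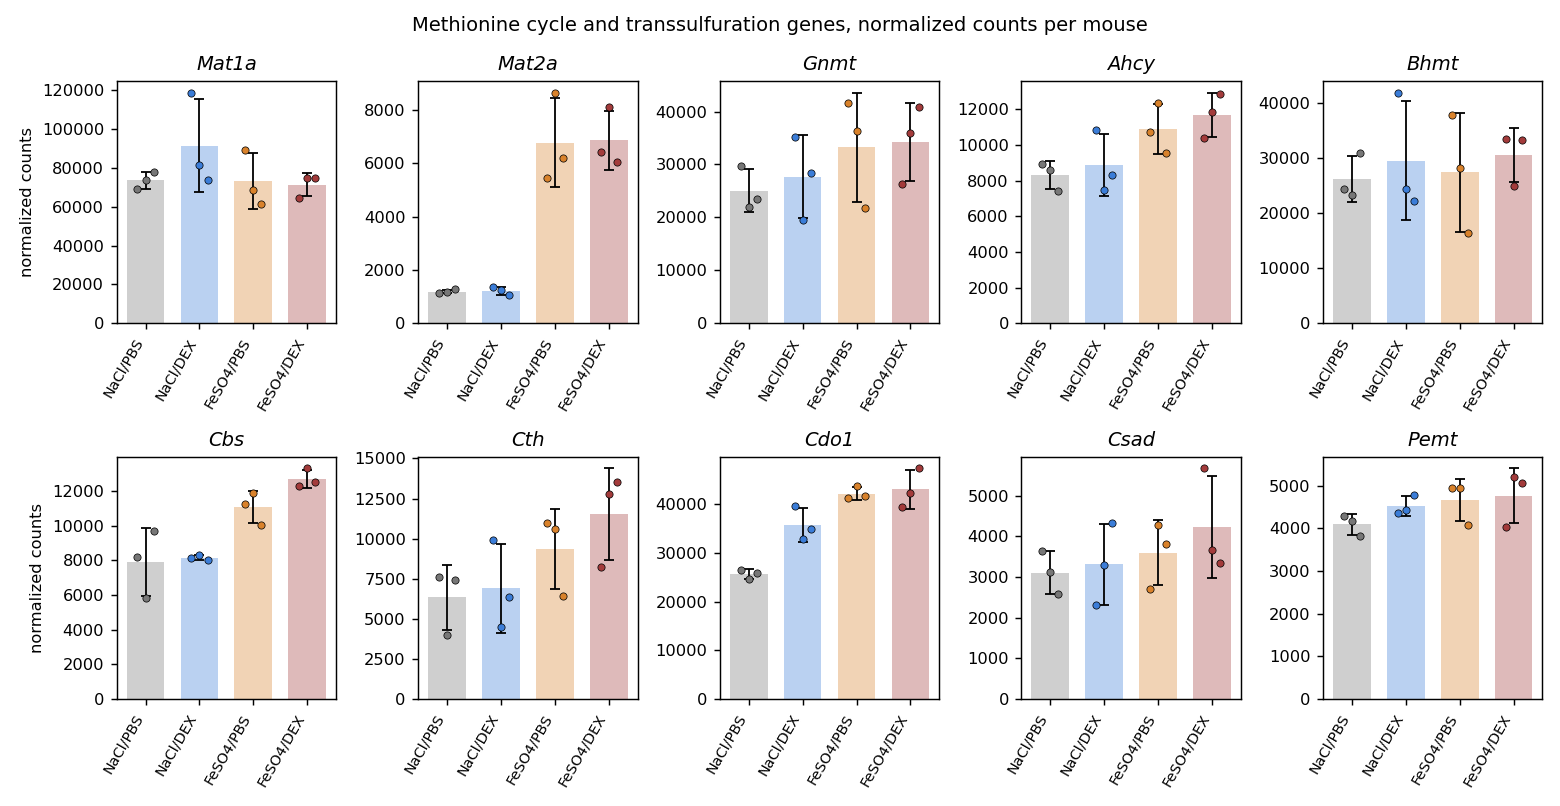
Normalized counts (vertical axes, each starting at 0) of the 10 genes in the 4 groups. Points are mice, bars the group means and error bars the SD (n = 3). Mat2a is several times higher in all 6 FeSO4 mice than in all 6 NaCl mice, whereas the Mat1a points of the groups overlap.

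FeSO4 without DEX raised 4 of the 10 genes and lowered 0. Mat2a rose 5.70-fold, and Cdo1, Cbs and Ahcy rose by 1.31-fold to 1.64-fold, while Mat1a, Bhmt, Gnmt, Pemt, Cth and Csad were not called. The genes that rose act at SAM synthesis, at the hydrolysis of S-adenosylhomocysteine, at the entry to transsulfuration and at the oxidation of cysteine. Of all genes tested, 27.2% were called higher and 27.3% lower (54.5% in either direction), so that, taken over both directions, the share called among the 10 genes was below that of all genes. The median LFC of the 10 was 0.40, against -0.02 for all genes tested. When libraries were scaled by size alone, the median over all genes fell to -0.34, higher genes made up 28.2% instead of 49.9% of all calls, and 2 of the 10 genes (Mat2a and Cdo1) were called higher. By FDR together with an LFC beyond 1, Mat2a alone was called, against 12.5% of all genes called higher.

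Mat2a had 1144, 1157 and 1267 normalized counts in the NaCl/PBS mice. In the FeSO4/PBS mice it had 5460, 8658 and 6212. Every FeSO4/PBS mouse thus lay several times above every NaCl/PBS mouse, and the mean went from 1189 ± 67.6 to 6777 ± 1672 (SD, n = 3). The LFC was 2.51 (SE 0.17, 95% interval 2.14 to 2.89, edgeR FDR 9.8e-08), and without any single mouse it stayed between 2.30 and 2.65. Part of Mat2a, 16.9% of its exon bases, overlaps Ggcx on the opposite strand, and Ggcx had at most 1490 reads.

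Mat1a, which encodes the catalytic subunit of the liver's own SAM synthetases, showed no such rise. Its 3 NaCl/PBS mice had 69294, 73649 and 77900 normalized counts and its 3 FeSO4/PBS mice 89484, 68632 and 61453. The FeSO4/PBS mice lay on both sides of the controls, and the LFC was -0.01 with an interval of -0.40 to 0.38 (edgeR FDR 0.97).

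The balance of the 2 isozyme genes can be read within each library, where it does not depend on the scaling between libraries. Per length, the level of Mat1a was 48.8, 51.3 and 49.6 times that of Mat2a in the NaCl/PBS mice. In the FeSO4/PBS mice it was 13.2, 6.39 and 7.98 times. The log2 ratio of Mat2a to Mat1a went from -5.64 ± 0.04 to -3.13 ± 0.54 (SD, n = 3), a shift of 2.51 or 5.69-fold, and the groups did not overlap (exact two-sided permutation test, p = 0.1, the smallest that 3 against 3 mice can give). By level per length, Mat2a moved from rank 10 to rank 8 of the 10 genes, at 119 RPKM (95.6 to 152). There it overlapped Cbs at 89.6 RPKM (81.5 to 96.3). These levels depend on the length used. With the length of all exons, the ratio of Mat2a to Mat1a was 0.0127 to 0.0134 in NaCl/PBS mice and 0.0494 to 0.102 in FeSO4/PBS mice. The Mat2a mean of 73.1 RPKM in FeSO4/PBS mice then lay above the 61.8 of Pemt. The shift of the log2 ratio, 2.51, does not depend on the length, since the lengths are the same in every mouse and cancel.

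**Figure D2:**
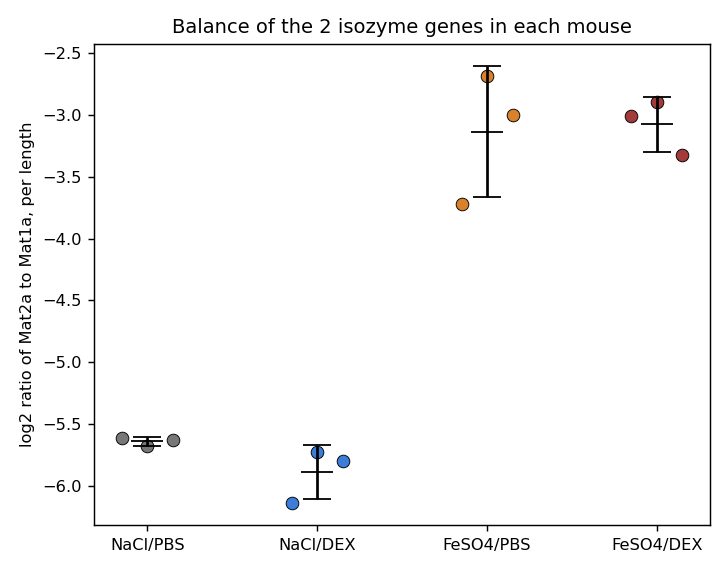
The log2 ratio of Mat2a to Mat1a per transcript length in each mouse (vertical axis), by group. Points are mice, horizontal marks the means and error bars the SD (n = 3). The NaCl/PBS and NaCl/DEX mice lie between -6.14 and -5.61 and the FeSO4/PBS and FeSO4/DEX mice between -3.72 and -2.68.

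Among the genes that use SAM or its product, Ahcy was called. Ahcy, the hydrolase that frees homocysteine, had 8916, 8581 and 7403 normalized counts in NaCl/PBS mice and 10703, 12384 and 9576 in FeSO4/PBS mice. The groups did not overlap, but the difference was small, with an LFC of 0.39 (SE 0.15, interval 0.07 to 0.72, edgeR FDR 0.041). The call was lost without FeSO4/PBS mouse 2 (FDR 0.16) and without NaCl/PBS mouse 1 (0.051), 2 (0.065) or 3 (0.15). It was also lost with at least 10 counts in every library (0.050), with the replicate number as a block (0.055) and with library size alone (LFC 0.07, FDR 0.69). Gnmt stood at an LFC of 0.41 (interval -0.13 to 0.95, FDR 0.18), with 21970 to 29622 normalized counts in NaCl/PBS mice and 21780 to 41691 in FeSO4/PBS mice. The low value came from FeSO4/PBS mouse 3, without which the LFC of Gnmt was 0.65 and was called (FDR 0.035). Gnmt was also called without a filter on low counts (LFC 0.41, FDR 0.0185). Gnmt shares 16.9% of its exon bases with Pex6 on the opposite strand. Pemt, which makes phosphatidylcholine from phosphatidylethanolamine with methyl groups from SAM, had an LFC of 0.19 (interval -0.07 to 0.45, FDR 0.21).

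Bhmt, which remethylates homocysteine with betaine as donor, varied more between mice than between groups. It had 23348 to 30955 normalized counts in NaCl/PBS mice and 16290 to 37788 in FeSO4/PBS mice, and its LFC was 0.06 with an interval of -0.54 to 0.66 (FDR 0.86). An interval of this width does not show that Bhmt stayed the same. Its paralog Bhmt2, which uses S-methylmethionine as donor, fell by 0.63 on the log2 scale (SE 0.11, edgeR FDR 0.00028). The pseudogene Bhmt-ps1 had 1 to 7 reads in every library.

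Both transsulfuration enzymes had higher means after FeSO4, and Cbs was called. Cbs, which joins homocysteine and serine to cystathionine, had 8196, 5820 and 9680 normalized counts in NaCl/PBS mice and 11228, 11876 and 10052 in FeSO4/PBS mice. All FeSO4/PBS mice lay above all controls, and the LFC was 0.48 (SE 0.15, interval 0.16 to 0.81, edgeR FDR 0.015). Without NaCl/PBS mouse 2, the lowest control, the LFC was 0.31 (FDR 0.056). The call was also lost in a fit of these 6 libraries alone (FDR 0.050) and with library size alone (LFC 0.16, FDR 0.37). Cth, which splits cystathionine into cysteine, had 7590, 4006 and 7415 normalized counts in NaCl/PBS mice and 10946, 10577 and 6451 in FeSO4/PBS mice. The groups overlapped, with an LFC of 0.56 (interval -0.10 to 1.22, FDR 0.14). Without a filter on low counts Cth was called (LFC 0.55, FDR 6.8e-04).

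Cdo1, the iron-containing dioxygenase that commits cysteine to taurine and sulfate, had the clearest rise after Mat2a. Its 3 NaCl/PBS mice had 26503, 24656 and 25984 normalized counts and its 3 FeSO4/PBS mice 41234, 43797 and 41647. Both groups were tight and far apart, and the LFC was 0.72 (SE 0.12, interval 0.47 to 0.96, edgeR FDR 1.5e-04). Leaving out any single mouse moved it between 0.69 and 0.74, with the call kept. With library size alone the LFC was smaller, at 0.40, and still called (FDR 0.0072). Csad, which decarboxylates cysteine sulfinate to hypotaurine in the next step, had an LFC of 0.21 (interval -0.31 to 0.73, FDR 0.49), and 34.3% of its exon bases overlap Zfp740 on the opposite strand.

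Cell type markers also moved after FeSO4. Of 9 general hepatocyte markers 5 were called higher and 0 lower, with a median LFC of 0.41, near the 0.40 of the 10 enzyme genes; their summed level was 112000 to 131000 CPM (counts scaled to library depth) in NaCl/PBS mice and 143000 to 162000 in FeSO4/PBS mice. Of the 8 periportal markers 5 were called higher, with a median LFC of 0.46, and of the 9 pericentral markers 1 was called higher and 4 lower, with a median of -0.38. All 7 Kupffer cell markers were called lower (373 to 423 CPM against 207 to 241 in sum), and 5 of 6 neutrophil markers tested were called higher (5.85 to 15.1 CPM against 39.2 to 47.2 for all 7). Of 7 endothelial markers 1 was called higher and 4 lower, of 6 stellate cell markers 2 higher and 1 lower, and of 4 cholangiocyte markers tested 1 higher. Their part in the changes of the enzyme genes was not tested.

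**Figure D3:**
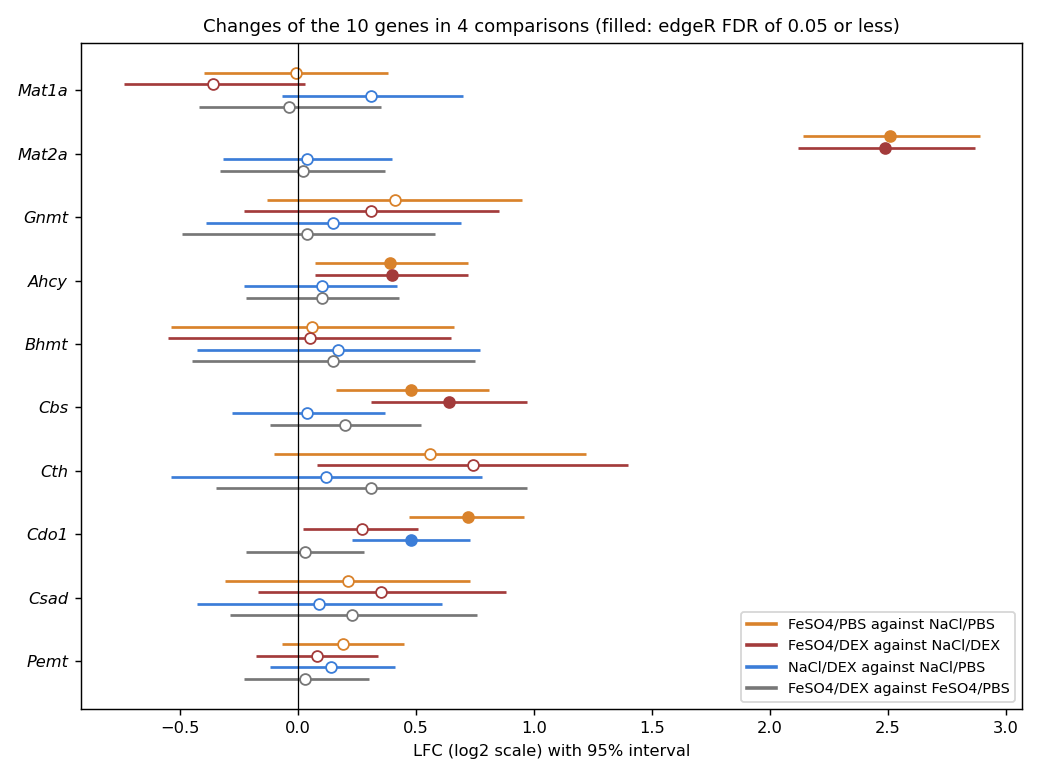
LFC (horizontal axis, log2 scale) of each gene in 4 comparisons, with its 95% interval; filled points passed an edgeR FDR of 0.05. The points of Mat2a in both FeSO4 comparisons lie near 2.5, and all others lie between -0.36 and 0.74.

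DEX in mice without iron overload raised 1 of the 10 genes, Cdo1, and lowered 0. Of all genes tested, 6.50% were called higher, 7.15% lower and 13.7% in either direction. With libraries scaled by size alone, the median LFC of all genes was -0.18 instead of -0.02, higher genes made up 25.8% instead of 47.6% of the calls, and 0 of the 10 genes were called. This comparison shares its NaCl/PBS mice with the preceding one. Cdo1 had 39721, 32815 and 34943 normalized counts in NaCl/DEX mice, all above the NaCl/PBS range of 24656 to 26503. The LFC was 0.48 (SE 0.12, interval 0.23 to 0.73, edgeR FDR 0.013), and without NaCl/DEX mouse 1 it was 0.40 (FDR 0.064). The median LFC of the 10 genes was 0.13 with all mice and 0.005 without NaCl/DEX mouse 1, and 2 of them, Cdo1 and Pemt, had all NaCl/DEX mice above all NaCl/PBS mice, against 17.6% of all genes.

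Neither SAM synthetase gene was called after DEX. Mat2a had 1355, 1237 and 1069 normalized counts in NaCl/DEX mice, around the values of the controls, with an LFC of 0.04 (interval -0.32 to 0.40, FDR 0.92). Mat1a had 118806, 81732 and 73811, of which the first, from mouse 1, lay far above the others, and its LFC was 0.31 (interval -0.07 to 0.70, FDR 0.30), or 0.08 without that mouse (FDR 0.82). Per length, Mat1a was 70.7, 53.3 and 55.7 times the level of Mat2a, so that the log2 ratio of Mat2a to Mat1a was 0.25 lower than in NaCl/PBS mice (difference -0.25, exact permutation p = 0.1, the smallest possible), and -0.13 without mouse 1. The remaining LFCs lay between 0.04 (Cbs) and 0.17 (Bhmt), with intervals that reached from -0.54 to 0.78 for Cth. Without NaCl/DEX mouse 1 the sign turned for 5 genes, to -0.23 for Cth, -0.17 for Bhmt, -0.07 for Ahcy, -0.06 for Gnmt and -0.04 for Mat2a, none of them called in either fit, and Csad moved from 0.09 to 0.29 (FDR 0.52).

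DEX in mice with iron overload changed 0 of the 10 genes by edgeR, 0 had an unadjusted p under 0.05, and 0 were called by DESeq2. In this comparison edgeR called 0% of 13857 genes, 900 of them had an unadjusted p under 0.05, and DESeq2 called 9. The 10 LFCs lay between -0.04 (Mat1a) and 0.31 (Cth). Mat2a had 6425, 8130 and 6056 normalized counts in FeSO4/DEX mice, within the FeSO4/PBS range of 5460 to 8658, and an LFC of 0.02 (interval -0.33 to 0.37). Cdo1 had 39451, 42398 and 47444, overlapping the FeSO4/PBS mice, and an LFC of 0.03 (interval -0.22 to 0.28). Cbs, with 12297, 13305 and 12486, was the 1 gene whose FeSO4/DEX mice all lay above the FeSO4/PBS mice (4.45% of all genes did), at an LFC of 0.20 (interval -0.12 to 0.52, FDR 0.83).

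Whether the 2 DEX responses differed was tested as an interaction, and 0 of the 10 genes were called by edgeR, against 6.18% of all genes. Cdo1 was the 1 gene with an unadjusted p under 0.05: its DEX response was 0.48 in NaCl mice and 0.03 in FeSO4 mice, a difference of -0.45 (SE 0.16, interval -0.80 to -0.10, edgeR FDR 0.13). DESeq2 called this difference (FDR 0.011, LFC -0.49). The level of Cdo1 in NaCl/DEX mice, 35826 ± 3537 (SD, n = 3), lay between those of NaCl/PBS mice at 25714 ± 953 and FeSO4/PBS mice at 42226 ± 1376. For Mat2a the difference between the responses was -0.02 with an interval of -0.52 to 0.49.

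In DEX-treated mice FeSO4 raised 3 of the 10 genes, Mat2a, Cbs and Ahcy, and lowered 0. Of all genes 22.4% were called higher, 20.9% lower and 43.3% in either direction, and the median LFC of the 10 was 0.33 (0.455 without NaCl/DEX mouse 1), against 0.01 for all genes. In 2 of the 10, Mat2a and Cbs, all FeSO4/DEX mice lay above all NaCl/DEX mice. Of all genes 28.8% lay wholly above and 27.1% wholly below. Mat2a rose by an LFC of 2.49 (SE 0.17, interval 2.12 to 2.87, edgeR FDR 1.7e-07), a 5.63-fold rise that left no overlap between the FeSO4/DEX mice (6056 to 8130 normalized counts) and the NaCl/DEX mice (1069 to 1355). In the FeSO4/DEX mice Mat1a was 8.07, 7.42 and 9.99 times the level of Mat2a per length, and the log2 ratio of Mat2a to Mat1a was 2.82 higher than in NaCl/DEX mice, or 7.05-fold (exact permutation p = 0.1, the smallest possible). The Mat1a part of that shift was an LFC of -0.36 (interval -0.74 to 0.03, FDR 0.12). Without NaCl/DEX mouse 1 the LFC of Mat1a was -0.13 (FDR 0.58) and the shift of the ratio 2.69.

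Cbs was steady in NaCl/DEX mice at 8135, 8298 and 7995 normalized counts and higher in all FeSO4/DEX mice. Its LFC was 0.64 (SE 0.15, interval 0.31 to 0.97, edgeR FDR 0.0037), and it stayed called without any single mouse. Cth reached an LFC of 0.74 (interval 0.08 to 1.40, FDR 0.067), with 9935, 4457 and 6333 normalized counts in NaCl/DEX mice and 8259, 12774 and 13555 in FeSO4/DEX mice. Its groups overlapped through NaCl/DEX mouse 1, without which the LFC was 1.09 (FDR 0.016). It was also called without FeSO4/DEX mouse 1 (FDR 0.038) or NaCl/PBS mouse 2 (0.048) and by DESeq2 (0.048). The fit of both groups alone (FDR 0.044) and the fit without a filter on low counts (FDR 7.3e-06) called Cth as well. Ahcy had an LFC of 0.40 (interval 0.07 to 0.72, FDR 0.047). This call was lost in 9 of the 12 fits that left out 1 mouse (FDR up to 0.19, kept without FeSO4/DEX mouse 1, FeSO4/PBS mouse 2 or NaCl/DEX mouse 1). It was also lost with library size alone (LFC 0.20, FDR 0.28), with DESeq2 size factors (FDR 0.0548), with the replicate block (0.0593) and in the fit of both groups alone (0.0545). The groups overlapped, since NaCl/DEX mouse 1 at 10831 lay above FeSO4/DEX mouse 1 at 10415. Cdo1, already higher after DEX, had an LFC of 0.27 (interval 0.02 to 0.51, FDR 0.075), and it was called by DESeq2 (FDR 0.043) and without NaCl/DEX mouse 1 (LFC 0.34, FDR 0.050). Gnmt, Bhmt, Csad and Pemt lay between 0.05 and 0.35 with intervals that include 0. Without that mouse Bhmt moved from 0.05 to 0.39, Gnmt from 0.31 to 0.52 and Csad from 0.35 to 0.15, none of them called. The 2 FeSO4 comparisons share no mice. Without NaCl/DEX mouse 1, edgeR called 5 of the 10 genes higher in this comparison.

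Across the 12 mice, many but not all genes of the route varied together. The following are Pearson's r of log2 CPM over 12 libraries that share treatment groups, given as descriptions. Gnmt went with Cth (r = 0.90) and Ahcy (0.82), Cth with Ahcy (0.83) and Cbs (0.81), and Ahcy with Cdo1 (0.81). Mat2a went with Cbs (0.86), Cdo1 (0.80) and Ahcy (0.79). Between any of Mat2a, Gnmt, Ahcy, Cbs, Cth, Cdo1 and Pemt the r was positive, the lowest being 0.45 for Cbs and Pemt. Mat1a went with Bhmt (0.67) and against Csad (-0.77), and with Mat2a its r was -0.35. Among 8980 genes with a mean of at least 5 CPM, those most like Mat2a were Itpkc (0.995), an inositol trisphosphate kinase gene, and Map7 (0.994), a microtubule-associated protein gene. Cbs was most like Gldc (0.976), of the glycine cleavage system, and Ddc (0.960), and Cdo1 like Degs1 (0.983), a ceramide synthesis enzyme gene, and Slc35a4 (0.974). Gnmt was most like Selenbp1 (0.950) and Gpt (0.941), an alanine aminotransferase gene. Cth was most like Gls2 (0.953), the liver glutaminase gene, and C2cd2 (0.950). For Ahcy these were Itm2b (0.951) and Sugct (0.929), for Pemt Ccdc107 (0.931) and Sem1 (0.923), and for Bhmt Gigyf2 (0.920) and Ppp6r1 (0.854). Mat1a had its highest values with Nubpl (0.859) and Hdhd2 (0.848), and Csad with Serpinh1 (0.837) and Cmip (0.811).

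The routes that feed or drain the cycle were followed in 5 lists with 55 genes, of which 54 passed the filter on low counts. After FeSO4 without DEX, 14 were called higher and 10 lower, which is 44.4% against 54.5% of all genes, and their median LFC was -0.03. With libraries scaled by size alone the balance turned to 7 higher and 27 lower. With TMM scaling, all calls among methyl donor genes were lower, all or most calls among phosphatidylcholine and polyamine genes were higher, and the other 2 lists had calls both ways. Of all genes 27.2% were called higher and 27.3% lower. After FeSO4 in DEX-treated mice 10 were called higher and 10 lower (37%, against 43.3% of all genes). The median LFC there was 0.12 for the polyamine list and -0.02 for the phosphatidylcholine list. DEX in NaCl mice raised 3 of the 54 and lowered 0 (5.56%, against 13.7% of all genes).

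Of the 11 methyl donor genes, which supply methyl groups from folate, choline and betaine, 4 were called lower and 0 higher after FeSO4 (median LFC -0.29). Chdh, the choline dehydrogenase that starts betaine synthesis, had 3991, 4604 and 4232 normalized counts in NaCl/PBS mice and 1562, 1628 and 1926 in FeSO4/PBS mice. No mouse overlapped, and the LFC was -1.33 (SE 0.13, edgeR FDR 1.4e-06), a 2.51-fold lower level. Shmt1, the cytosolic serine hydroxymethyltransferase, fell by 0.91 (FDR 3.8e-05), Mtr, the folate-dependent methionine synthase, by 0.64 (FDR 0.0022), and Bhmt2 by 0.63. All 4 were also called lower in DEX-treated mice, with LFCs of -0.98, -0.44, -0.82 and -0.68.

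Of 12 other genes of SAM use and transport, 2 were called higher and 3 lower. Gatm, which makes the substrate of creatine methylation, fell by 1.41 (SE 0.35, FDR 0.0039), and Tpmt, thiopurine methyltransferase, by 0.85 (FDR 1.7e-04). Nnmt, which methylates nicotinamide, rose by an LFC of 1.03 (SE 0.32, FDR 0.014), a call that was lost without FeSO4/PBS mouse 1 (LFC 0.52, FDR 0.096) and without NaCl/PBS mouse 1 (FDR 0.052). Slc25a26, the mitochondrial SAM carrier, rose by 0.79 (FDR 0.010). With library size alone neither was called (Nnmt LFC 0.70, FDR 0.061, and Slc25a26 LFC 0.47, FDR 0.084). After FeSO4 in DEX-treated mice Tpmt was also called lower (LFC -0.60, FDR 0.0033). Gatm (LFC -0.36, FDR 0.44), Nnmt (0.34, FDR 0.42) and Slc25a26 (0.31, FDR 0.30) were not called there.

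Downstream of cysteine, 3 of 10 genes tested were called higher and 2 lower. Got1, the cytosolic aspartate aminotransferase, which can also deaminate cysteine sulfinate, had 3416, 2617 and 5870 normalized counts in NaCl/PBS mice and 19594, 21341 and 17120 in FeSO4/PBS mice. Every FeSO4/PBS mouse was far above every control, with an LFC of 2.29 (SE 0.26, edgeR FDR 6.0e-06). Ethe1, the mitochondrial persulfide dioxygenase, rose by 1.31 (SE 0.25, FDR 5.7e-04), and Slc6a6, the taurine transporter, fell by 0.97 (SE 0.18, FDR 4.3e-04). Ado, cysteamine dioxygenase, was called at an LFC of 0.34 (FDR 0.046). The Ado call was lost in 10 of the 12 fits without 1 mouse (FDR up to 0.21, kept without FeSO4/DEX mouse 1 or FeSO4/PBS mouse 1). It was also lost with library size alone (LFC 0.03, FDR 0.89). After FeSO4 in DEX-treated mice Got1 (LFC 0.98, FDR 0.0055), Ethe1 (1.55, FDR 2.3e-04) and Slc6a6 (-0.62, FDR 0.012) were called the same way. Ado was not called there (LFC 0.24, FDR 0.16).

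Of 12 polyamine and methionine salvage genes, which start from decarboxylated SAM and return its sulfur to methionine, 5 were called higher and 1 lower. Sat1, which acetylates spermidine and spermine, had 918 to 957 normalized counts in NaCl/PBS mice and 2481 to 4589 in FeSO4/PBS mice, which is a rise by 1.80 on the log2 scale (SE 0.19, FDR 2.9e-06). Odc1, ornithine decarboxylase, rose by 0.90 (SE 0.14, FDR 8.5e-05) and Amd1, SAM decarboxylase, by 0.77 (SE 0.18, FDR 0.0028). Srm, spermidine synthase, was called at 0.57 (FDR 0.028). It lost the call without FeSO4/PBS mouse 1 (LFC 0.29, FDR 0.16) or NaCl/PBS mouse 3 (FDR 0.13). The call was also lost with library size alone (LFC 0.24, FDR 0.29) and in the fit of both groups alone (FDR 0.060). After FeSO4 in DEX-treated mice Sat1 was again called higher (LFC 1.89, FDR 3.1e-06), but Amd1 was called lower (LFC -1.23, FDR 1.1e-04). Odc1 (LFC -0.10, FDR 0.59) and Srm (0.03, FDR 0.92) were not called there.

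Of 9 genes of the other routes to phosphatidylcholine and to its precursor phosphatidylethanolamine, 4 were called higher and 0 lower. Chka, the choline kinase of the pathway that makes phosphatidylcholine without SAM, had 403, 336 and 479 normalized counts in NaCl/PBS mice and 1989, 4612 and 4254 in FeSO4/PBS mice. The groups were far apart, with an LFC of 3.15 (SE 0.29, edgeR FDR 1.2e-06) or 8.91-fold, beside the 0.19 of Pemt, the gene of the SAM-dependent route. Genes of the later steps of the choline pathway were not called: Pcyt1a (LFC 0.18, FDR 0.15), Chpt1 (0.01, FDR 0.95) and Cept1 (-0.16, FDR 0.26). In DEX-treated mice Pcyt1a was called higher after FeSO4 (LFC 0.37, FDR 0.0092), and Chpt1 and Cept1 were not called. Chkb, the second choline kinase, rose by 1.39 (FDR 0.0014) and Pisd, which makes phosphatidylethanolamine from phosphatidylserine, by 0.58 (FDR 0.0037), which with library size alone was 0.25 and not called (FDR 0.16). Etnk2, an ethanolamine kinase, was called at 0.47 (FDR 0.035), a call lost in 4 fits without 1 mouse, those without FeSO4/PBS mouse 1 or 2 and NaCl/PBS mouse 1 or 2 (FDR 0.10 to 0.12). The Etnk2 call was also lost with the replicate block (FDR 0.057), with library size alone (LFC 0.15, FDR 0.46) and in the fit of both groups alone (FDR 0.064). After FeSO4 in DEX-treated mice Chka (LFC 3.30, FDR 1.4e-06) and Chkb (1.86, FDR 2.4e-04) were again called higher. Pisd (LFC -0.02, FDR 0.93) and Etnk2 (0.01, FDR 0.98) were not called there.

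**Figure D4:**
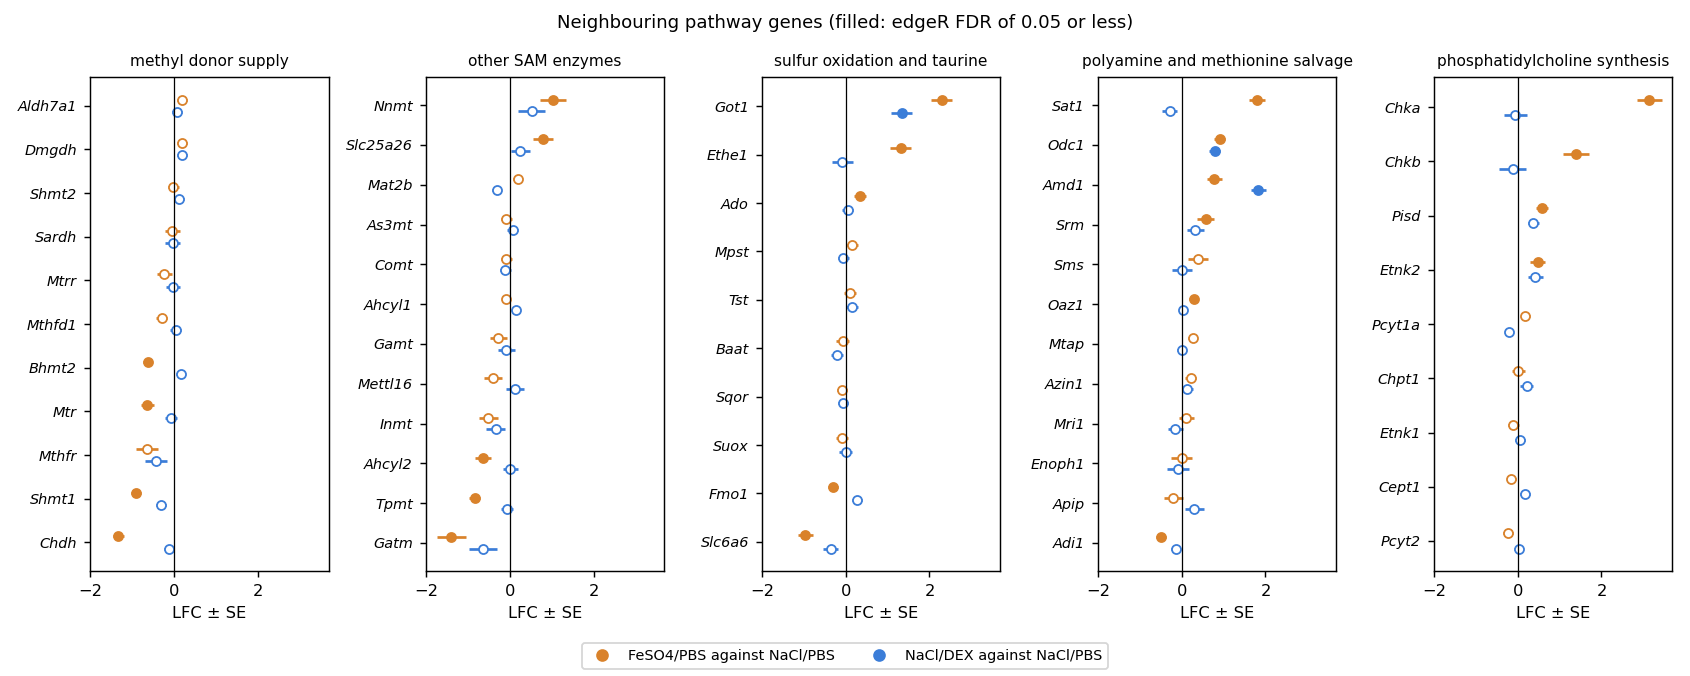
LFC with its SE (horizontal axes, log2 scale) of the 54 genes tested in the 5 lists, for FeSO4/PBS against NaCl/PBS and for NaCl/DEX against NaCl/PBS; filled points passed an edgeR FDR of 0.05. Chka (3.15) and Got1 (2.29) have the largest FeSO4 values, and Amd1 (1.83), Got1 (1.34) and Odc1 (0.78) are the genes called after DEX.

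After DEX in NaCl mice, the 3 genes called were Amd1, Got1 and Odc1. Amd1 had 201, 282 and 253 normalized counts in NaCl/PBS mice, 934, 763 and 914 in NaCl/DEX mice and 339, 347 and 429 in FeSO4/DEX mice. The NaCl/DEX mice thus lay above both other groups, with an LFC of 1.83 against NaCl/PBS (SE 0.18, edgeR FDR 2.0e-05), and the FeSO4/DEX mice were lower than the NaCl/DEX mice by 1.23 (FDR 1.1e-04). Got1 rose by 1.34 after DEX (SE 0.25, FDR 0.0024) and Odc1 by 0.78 (SE 0.14, FDR 0.0015). Reads that match Amd1 and Amd2, its near-identical retrocopy in mice, equally well are left out of counts of uniquely mapped reads. Amd1 may thus be counted too low, which was not tested.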

How the data were processed

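According to the study's methods, stranded mRNA libraries were sequenced as single-end reads, checked with FastQC, mapped to mm39 with STAR 2.7.10b and counted per gene with an earlier GENCODE release; the authors tested DEGs with DESeq2. The deposited values are raw counts of uniquely mapped reads per Ensembl gene, without normalization, in 12 libraries. Which strand column was taken is not given in the sources used here, so reads of overlapping antisense genes may not be told apart. Symbols, positions and transcript lengths came from GENCODE vM39 on GRCm39 (54749 of 55414 genes matched).

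Counts were analysed with edgeR 4.0.16 in R 4.3.3 (filterByExpr, TMM, all libraries in 1 quasi-likelihood model without an intercept; Benjamini-Hochberg adjustment over 13857 genes) and, as an alternative, DESeq2 1.42.0; figures were drawn with matplotlib 3.10.9. Intervals are 95%. The prior degrees of freedom were 5.93 and the biological coefficient of variation 0.169. The code was tested on simulated data. Replicates are mice, and no 2 libraries agreed within sampling noise (chi-square per gene 16.8 to 81.4); intervals over 3 mice, more than depth, limit the precision.

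All 10 genes are named. From each of the 5 pathway lists, up to 4 genes called after FeSO4 and up to 2 more called after DEX were named, those with the largest LFC. Mettl16, Pcyt1a, Chpt1 and Cept1 were named after their values were seen. For each of the 10 genes the 2 genes with the highest r were named. The genes and lists were chosen with earlier results of these data known. Alternatives were DESeq2, its size factors in edgeR, library size alone, no filter, a filter of 10 counts per library, a replicate block, fits of 2 groups alone, and each mouse left out in turn. Promoters of Mat1a, Cth and Cdo1 and protein sequences were not used here.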

Additional observations from a re-analysis of the deposited data

Results flagged for a closer look

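The DEX response differed between NaCl and FeSO4 mice, by the interaction test in edgeR, for 3 of the 54 pathway genes tested beside the cycle. This is 5.56%, against 6.18% of all genes tested. For Amd1, SAM decarboxylase, the difference was -2.0 on the log2 scale (SE 0.26, FDR 4.9e-04): the response was 1.83 in NaCl mice, and in FeSO4 mice the LFC was -0.17 (interval -0.56 to 0.22). For Odc1, ornithine decarboxylase, it was -1.0 (SE 0.19, FDR 0.0071), from 0.78 in NaCl mice to an LFC of -0.22 (interval -0.51 to 0.07) in FeSO4 mice. For Got1, the cytosolic aspartate aminotransferase, it was -1.31 (SE 0.35, FDR 0.040), from 1.34 to 0.03, a call lost in 7 of the 12 fits without 1 mouse (FDR up to 0.097, the highest without NaCl/PBS mouse 1; the others were those without NaCl/PBS mouse 2, NaCl/DEX mouse 1 or 2, FeSO4/PBS mouse 2 and FeSO4/DEX mouse 1 or 3), with the replicate block (0.057) and with library size alone (0.053). FeSO4 without DEX raised the 3 genes by 0.77, 0.90 and 2.29, and the 2 DEX responses share no mice.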

How the results depend on the processing

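Of the 50 results of the 10 genes (5 comparisons each), 40 kept their side of the FDR threshold in every alternative run, and of the 8 calls 4 did: Mat2a in both FeSO4 comparisons, Cdo1 in FeSO4/PBS against NaCl/PBS and Cbs in FeSO4/DEX against NaCl/DEX. The other 100 results, of named pathway genes, kept it in 83 cases. With library size alone, the number of the 10 genes called was 2 higher for FeSO4/PBS against NaCl/PBS, 0 higher for NaCl/DEX against NaCl/PBS and 1 lower for FeSO4/DEX against NaCl/DEX (Mat1a, LFC -0.56, FDR 0.016), and pathway genes called were 7 higher and 27 lower for FeSO4/PBS against NaCl/PBS and 3 lower for NaCl/DEX against NaCl/PBS. Without a filter on low counts 1 gene, Mat1a, was called lower for FeSO4/DEX against NaCl/DEX (LFC -0.38, FDR 0.040). In that fit 6 genes were called higher for FeSO4/PBS against NaCl/PBS, Gnmt (FDR 0.0185) and Cth (FDR 6.8e-04) among them. Cth was also called higher there for FeSO4/DEX against NaCl/DEX (FDR 7.3e-06). DESeq2 called 5 higher for FeSO4/DEX against NaCl/DEX, and 1 lower (Cdo1) in the interaction. Without 1 mouse at a time, the genes called higher were 2 to 5 for FeSO4/PBS against NaCl/PBS (2 without NaCl/PBS mouse 2), 0 to 1 for NaCl/DEX against NaCl/PBS (0 without NaCl/DEX mouse 1) and 2 to 5 for FeSO4/DEX against NaCl/DEX (5 without NaCl/DEX mouse 1). Except where the construction of the alternative shows it (fewer mice, another number of genes tested), the cause was not tested.

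The replicate numbers did not pair the mice: over 18 pairs with the same number, the correlation of deviations from the group means was -0.09 to 0.13, and 5 of 12 libraries correlated best with their own number. With the replicate block, 3 genes were called higher for FeSO4/PBS against NaCl/PBS and 2 for FeSO4/DEX against NaCl/DEX, the calls lost being those of Ahcy; among the named pathway genes the block ended the calls of Etnk2 after FeSO4 (FDR 0.057) and of Got1 in the interaction (FDR 0.057), and it changed no other call.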
